A study of Danio rerio with 16 samples.

Results

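The genes described here are 150 zebrafish genes whose transcripts were low at 4 hours post fertilisation (hpf) and higher at 7 hpf in primordial germ cells (PGCs) and in somatic cells alike. They were picked on a level L, the log2 of the mean CPM of the 2 replicates of a group plus 1, where CPM is a gene's count scaled to a library total of 1000000. A gene qualified when all 4 libraries of 7 hpf held at least 10 CPM and L was higher at 7 than at 4 hpf by at least 1.5 in PGCs and in soma. Of 34289 Ensembl gene identifiers in the count table, 6139 reached the CPM limit, 394 met both conditions and the 150 with the highest mean of the 2 changes were taken. A symbol was at hand for 143 of them and is written as the name table gives it, in capitals for some genes. The 4 and 7 hpf libraries chose the genes, so their values are given as a description without a test, and the tests use the libraries of 24 and 36 hpf.

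RNA was sequenced from PGCs and somatic cells (soma) sorted by flow cytometry at the blastula (4 hpf), gastrula (7 hpf) and pharyngula stages (24 and 36 hpf), with 2 libraries for each cell type and stage, 16 in all. All embryos carried the kop-EGFP-F-nos3’UTR transgene, together with cry:dsred, a red lens marker. The kop promoter is active in the maternal germ line and the nos3 3’UTR keeps the membrane-bound EGFP in PGCs, so the PGC gate rests on maternally supplied and germ-cell-stabilised EGFP. Soma was somatic cells sorted from embryos of the same line, a mixture of cell types whose make-up is not stated. No other treatment or genotype was compared. The paper states that embryos past 24 hpf were kept in N-phenylthiourea against pigmentation. Where it was used, its effect cannot be told apart from stage in the changes from 24 to 36 hpf. The paper also names several rearing temperatures, without saying which embryos had which.

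Before the maternal-to-zygotic transition the zebrafish embryo lives on RNA and protein laid down in the egg. Its own genome becomes active in the blastula, and during gastrulation transcription factors and signals of the Wnt, BMP, FGF, Notch and retinoic acid pathways divide the embryo into germ layers and axes, while adhesion molecules and extracellular matrix accompany the cell movements. The enveloping layer (EVL), a thin epithelium that covers the blastula and gastrula, differentiates first and expresses keratins and desmosome proteins. PGCs are set aside by inherited germ plasm, delay much of their own transcription and migrate to the gonad site.

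The libraries held 2825775 to 15633266 expected counts, so that 3 counts corresponded to 0.254 to 1.06 CPM. The summed level of 10 germ cell marker genes was 6694 to 12051 CPM in the PGC libraries of 4 and 7 hpf, 575 to 888 CPM at 24 hpf and 1509 (replicate 1) and 4616 CPM (replicate 2) at 36 hpf, against 12.4 to 490 CPM in the soma libraries. The sum of germ cell markers was therefore higher in the PGC libraries than in the soma libraries at each stage. At 4 hpf TDRD7 (ENSDARG00000077523) had a lower mean in PGCs, 2.07 against 6.48 CPM in soma. PIWIL1 (77.2 against 73.3 CPM) and PIWIL2 (48.2 against 40.2 CPM) were close, and the other markers were higher in PGCs. The PGC libraries of 24 hpf also held 13794 and 20569 CPM of 7 skeletal muscle genes, where the soma libraries held 3308 and 23772 CPM, and at 36 hpf these genes summed to 446 and 840.1 CPM in PGCs and to 556 and 2151 CPM in soma. The sums of 7 neural genes at 24 hpf were 483 and 328 CPM in PGCs and 517 and 450 CPM in soma. At 36 hpf they were 1113 and 167 CPM in PGCs and 1679 and 900 CPM in soma. Sums of 7 blood and endothelium genes at 36 hpf were 568 and 60.6 CPM in PGCs and 1970 and 568 CPM in soma. PGC replicate 1 of 36 hpf thus held more of both, and less germ cell marker RNA, than replicate 2. The part of such somatic transcripts in the PGC values of 24 and 36 hpf was not tested. One label of the first soma library of 24 hpf calls it PGCs, whereas its title and cell type say soma, and its germ cell markers summed to 13.7 CPM. It was used as soma. In these bulk samples fewer cells of a type and less RNA per cell cannot be told apart.

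Across the 150 genes the median of the mean CPM was 2.76 in PGCs and 2.67 in soma at 4 hpf, and 52.1 and 66.6 at 7 hpf. Their summed share of the library was 0.0766 to 0.128% in the 4 libraries of 4 hpf and 1.61 to 2.29% in those of 7 hpf. All 150 had their lowest 7 hpf library above their highest 4 hpf library, which the choice of genes favours. The change of L had a median of 3.69 in PGCs (2.05 to 7.96) and of 4.09 in soma (1.80 to 7.53). At 4 hpf, 17 genes had no more than 3 counts in any library and 3 of these had none, whereas 20 already exceeded 10 CPM in both cell types. After 7 hpf the median stayed near the same level, at 52.1 CPM in PGCs and 61.7 CPM in soma at 24 hpf and at 55.2 and 72.1 CPM at 36 hpf. Single genes departed widely from that median, and 104 of the 150 held at least 10 CPM in every library of 7, 24 and 36 hpf.

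**Figure D1:**
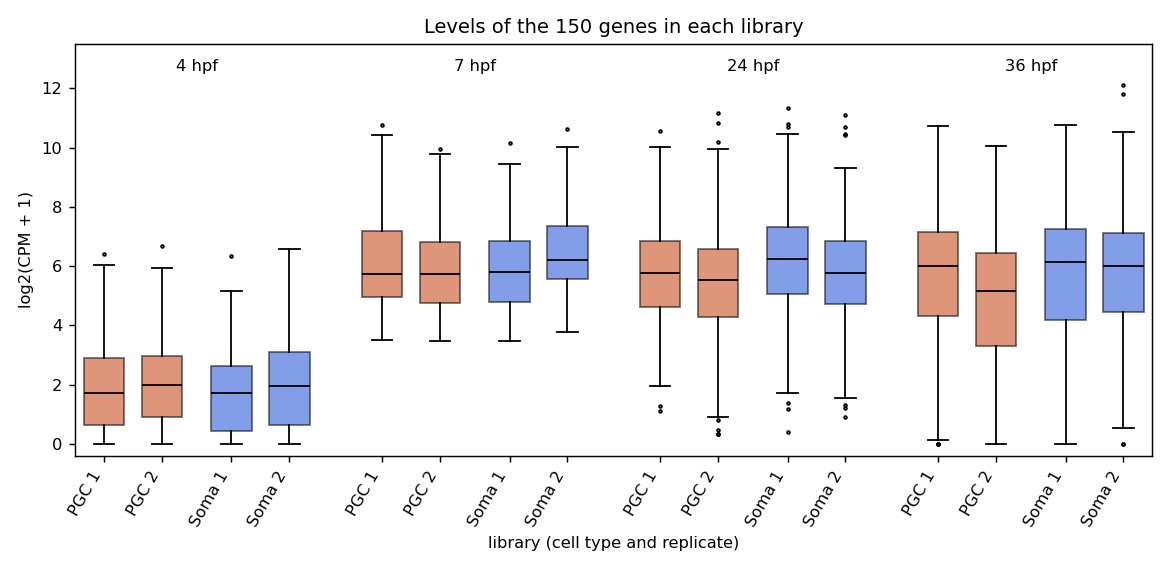
Levels of the 150 genes in each of the 16 libraries, as log2(CPM + 1) on the vertical axis, with PGC libraries in orange and soma libraries in blue. Boxes span the quartiles around the median, whiskers reach the last gene within 1.5 box heights and points are genes beyond them. The 4 libraries of 4 hpf sit low, as the choice of genes requires, and in PGC replicate 2 of 36 hpf the median (34.5 CPM) is the lowest after 4 hpf.

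The 10 named genes with the highest mean change came from several roles. si:ch211-217k17.9, a gene known here only by its clone-based name, was at 1.99 and 0.642 CPM in the PGC libraries of 4 hpf and at 699 and 455 CPM at 7 hpf (replicate 1, then replicate 2, as throughout). In soma it was at 0 and 1.22 CPM and then at 35.3 and 171 CPM, so that at 7 hpf the PGC libraries were both above the soma libraries. PCDH19, a protocadherin of the early nervous system, was without counts in PGCs at 4 hpf and at 35.9 and 76.5 CPM at 7 hpf. Soma went from 1.06 and 0 to 155 and 410.3 CPM, above PGCs in both libraries. FOXC1, a forkhead transcription factor of paraxial mesoderm, was at 0 and 1.5 and then 117 and 38.4 CPM in PGCs. In soma FOXC1 had no counts at 4 hpf and 113 and 149 CPM at 7 hpf, which overlapped with PGCs. cdx4, a caudal homeobox factor of the posterior body, had a change of L of 5.08 in PGCs and 7.29 in soma. The corresponding changes were 5.69 and 6.23 for the fibrillin FBN3, a microfibril protein. For ALDH1A2, which makes retinoic acid, they were 6.24 and 5.67. The basement membrane protein nidogen NID2 had 6.09 and 5.80. The last 3 were NOVA1, a neuronal splicing regulator (4.94 and 6.78), PKDCC, a secreted kinase (4.79 and 6.92), and tbx16l, a T-box factor of mesoderm (4.67 and 6.68). Of these 10, si:ch211-217k17.9, ALDH1A2 and NID2 had the larger change in PGCs and the other 7 in soma. The second highest gene of all, ENSDARG00000010124, has no symbol and went from 2.27 and 4.07 to 453 and 301 CPM in PGCs and from 0.709 and 7.05 to 664 and 635 CPM in soma.

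At the limit of the 150, the genes just inside were RASSF1, CERCAM and CORO1C, with mean changes of 3.13, 3.12 and 3.11, and those just outside were FOXA2, HES6 and WNT5B, with 3.11, 3.10 and 3.09. The 150 are thus the upper end of a continuous range. On deposited TPM, which also divides by length, rescaled without 3 genes, the same conditions were met by 150 genes as it happened, of which 43 were among those described here. The median effective transcript length of the 150 genes described here, chosen on CPM, was 2761 bases. It was 2157 bases over the 6139 genes at the CPM limit. Over the genes that met both conditions but fell outside the 150 it was 2347 bases.

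**Figure D2:**
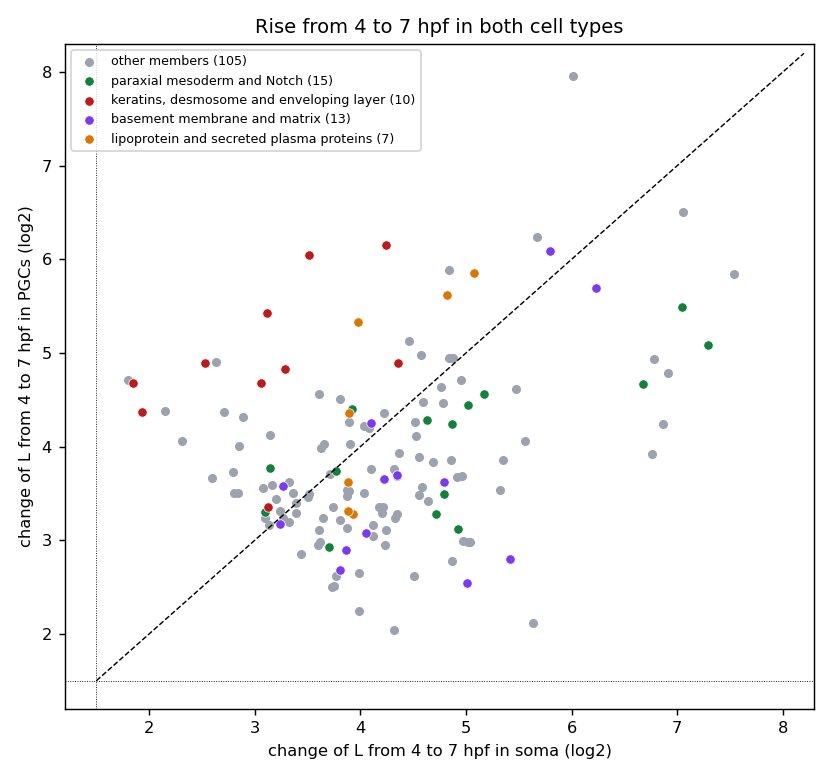
Change of L from 4 to 7 hpf in soma (horizontal axis) against that in PGCs (vertical axis), both log2, with 1 point per gene coloured by role, a dashed line of equal change and dotted lines at the limit of 1.5. Keratin and EVL genes lie above the dashed line (median change 4.86 in PGCs and 3.12 in soma), whereas 3 mesoderm genes (FOXC1, cdx4 and tbx16l) lie among the highest soma changes.

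At 7 hpf the genes that were highest in PGCs relative to soma were keratin and EVL genes, and the lowest were DLX3, lhx5, PCDH19, PKDCC and zgc:92242. PGC minus soma L had a median of -0.38 and ranged from -2.48 to 2.95. It was above 1 for 17 genes, where 12.7% of the 6139 genes were, and below -1 for 36 genes, where 5.26% of the 6139 were. The PGC libraries were both the higher for 21 genes (34.1% of the 6139) and both the lower for 62 (26.7%). The same libraries chose the genes, so nothing is read from these counts. TMM normalisation, which scales libraries on the bulk of their genes, lowers PGC minus soma by 0.41 at 7 hpf and gives 12 genes above 1 and 54 below -1. Without soma replicate 2 of 7 hpf the counts were 28 and 22.

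Keratins, desmosome and other EVL genes formed the role in which PGCs were highest at 7 hpf. Roles were assigned to 103 of the 150 genes in 12 groups after their values had been seen, so the groups are described and not tested. All 10 genes of the group had PGC minus soma L above 1 at 7 hpf (12.7% of the 6139 genes), with a median of 2.48. Both PGC libraries were above both soma libraries for 9 (34.1% of the 6139). The 7 hpf libraries chose the genes and their values were known when the group was made, so nothing is read from these counts. krt5, a keratin of surface epithelium, was at 64.5 and 60.6 CPM in PGCs and 32.9 and 76.8 CPM in soma at 4 hpf. At 7 hpf krt5 was at 1756 and 873 CPM in PGCs and at 83.3 and 340.3 CPM in soma. Both cell types were above their own 4 hpf levels and the PGC libraries were the higher. At 24 hpf the order was mixed, with krt5 at 315 and 659.7 CPM in PGCs and 1095 and 572 CPM in soma. At 36 hpf it was at 167 and 105 CPM in PGCs and 207 and 1267 CPM in soma, both PGC libraries below both soma libraries. Soma replicate 1 was above replicate 2 at 36 hpf for 1 of the 10 genes of the group, with a median replicate 1 minus 2 of -2.34 on the log2(CPM + 1) scale. The 10 genes summed to 1950 and 1345 CPM in PGCs and to 2106 and 11640 CPM in soma, where soma replicate 2 was far above the other 3 libraries.

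DSP encodes desmoplakin, which ties keratin filaments to desmosomes. It was at 1375 and 819 CPM in PGCs and 127 and 406 CPM in soma at 7 hpf, and at 230.1 and 267 and 319.7 and 328 CPM at 24 hpf. The gap at 7 hpf had thus turned into a small gap the other way. krt99, another keratin, had the largest PGC minus soma L of the 150 at 7 hpf, 2.95, at 899 and 378 CPM in PGCs and 41.0 and 122 CPM in soma. By 24 hpf it was at 16.2 and 4.83 and 23.1 and 9.04 CPM, and at 36 hpf at most 5.92 CPM were left in any library. The type I cytokeratins cyt1 and cyt1l went the other way after 7 hpf. cyt1l was at 365 and 184 CPM in PGCs and 17.1 and 87.3 CPM in soma at 7 hpf, and at 877 and 2329 and 2590.3 and 2183 CPM at 24 hpf. These 2 genes are close relatives, and reads that fit both are divided between them by the counting model, so their single values are uncertain. The cytolinker pleca (plectin) followed cyt1 and cyt1l in being higher at 24 than at 7 hpf in both cell types, by 1.74 in PGCs and 4.33 in soma. LCP1 encodes L-plastin, an actin-bundling protein best known from leukocytes. It was at 780.2 and 388 CPM in PGCs and 34.7 and 121 CPM in soma at 7 hpf, and at 4.93 and 10.9 and 75.3 and 33.6 CPM at 24 hpf. That is the widest reversal of the group, from 2.89 to -2.63 in PGC minus soma L. The plakophilin pkp3a, the gelsolin-family gene scinlb and the annexin ANXA1 were higher in PGCs at 7 hpf by 2.57, 2.39 and 1.08, and the libraries overlapped for ANXA1 alone of the 10.

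EVL and epidermis markers that are not among the 150 also had a higher sum in PGCs than in soma at 7 hpf. The summed level of 6 of them (krt4, krt92, krt17, epcam, cldne and cldni) was 5431 and 2933 CPM in PGCs and 374 and 994 CPM in soma at 7 hpf, with cldni at 0. At 4 hpf they summed to 344 to 618 CPM in the 4 libraries. In soma the 4 hpf sums were 530 and 349 CPM, and replicate 1 of 7 hpf lay between them. From 4 to 7 hpf the soma mean went from 184 to 72.3 CPM for epcam and from 53.8 to 45.6 CPM for cldne. The soma means of krt4, krt92 and krt17 were higher at 7 hpf. At 24 hpf the sums were 3232 and 7157 CPM in PGCs and 9502 and 8212 CPM in soma, and at 36 hpf 2889 and 1088 CPM in PGCs and 3133 and 18419 CPM in soma. The PGC libraries thus held a higher sum of these markers than soma at 7 hpf and a lower one at 24 hpf. Most of the 24 hpf sum was krt4, at 3035 and 6780 CPM in PGCs and 8958 and 7864 CPM in soma. At that stage krt92, krt17, epcam and cldne overlapped between the cell types. The part of EVL cells or their RNA in the PGC libraries was not tested. Other genes above 1 in PGC minus soma L at 7 hpf included RBM47, an RNA-binding protein of epithelia (1.09), the cholesterol exporter ABCA1 (1.61), the mitochondrial enzyme pck2 (1.05) and igf2bp2b, an mRNA-binding protein (1.15).

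In 9 genes both PGC libraries were above both soma libraries at 7 hpf and below them at 24 hpf (5.33% of the 6139 genes). They were si:ch211-217k17.9, RBM47, scinlb, pleca, DSP, LCP1, pkp3a, the giant cadherin FAT2 and si:ch211-232i5.1. For cyt1, cyt1l, scinlb, krt5 and WWTR1 the same turn was seen between 7 and 36 hpf (2.25%). smad9 alone was above soma in both PGC libraries at 7, 24 and 36 hpf (3.65%), and 4 genes, DLX3, EPHB3 (ENSDARG00000103576), ZEB1 and NID1, were below at all of these stages (2.41%). The shares over the 150 were near those over the 6139 for both turns and for the genes below throughout, so these counts are a description of single genes.

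**Figure D3:**
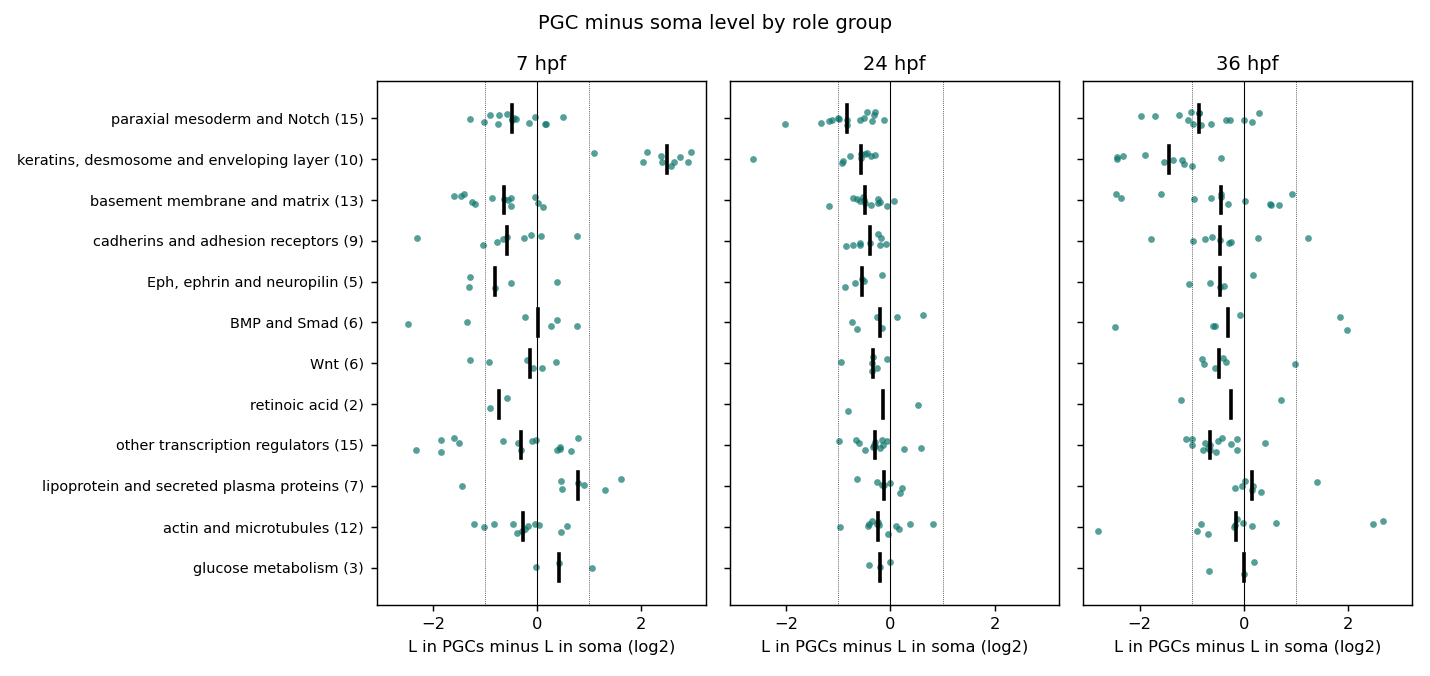
PGC minus soma L (log2, horizontal axis) at 7, 24 and 36 hpf for the genes of 12 role groups, with 1 point per gene, a bar at the group median and the number of genes in brackets. The keratin and EVL group has its median at 2.48 at 7 hpf, -0.57 at 24 hpf and -1.44 at 36 hpf, and the spread over genes is narrowest at 24 hpf.

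The 5 named genes lowest in PGCs relative to soma at 7 hpf were the homeobox genes DLX3 and lhx5, PCDH19, PKDCC and zgc:92242, each already past the CPM limit in PGCs as the choice of genes requires. DLX3, a homeobox gene of the neural plate border and epidermis, was at 10.4 and 26.5 CPM in PGCs and 54.0 and 160.5 CPM in soma. For lhx5, a LIM homeobox gene of the anterior neural plate, the values were 12.5 and 10.5 and 77.1 and 46.0 CPM. PKDCC was at 29.9 and 23.3 CPM in PGCs and 94.4 and 175 CPM in soma. In all 5 genes both PGC libraries lay below both soma libraries. At 24 hpf the differences were smaller, with PGC minus soma L of -0.64 for DLX3, 0.26 for lhx5, -0.19 for PCDH19, -0.43 for PKDCC and -0.44 for zgc:92242. Of these 5, DLX3 alone stood apart again at 36 hpf by more than 1, at 11.1 and 1.61 CPM in PGCs and 17.2 and 61.8 CPM in soma.

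Presomitic mesoderm genes are switched on at gastrulation, before the posterior embryo makes somites, and Notch ligands and hairy-type repressors drive the segmentation clock there. The 15 genes of this group had a median PGC minus soma L of -0.48 at 7 hpf. Both PGC libraries lay below both soma libraries for 5 of them, where 26.7% of the 6139 genes did, so nothing is read from that count. tbx16l was at 0.284 and 3.64 CPM in PGCs and 0 and 0.486 CPM in soma at 4 hpf, and at 88.3 and 60.5 and 98.0 and 154 CPM at 7 hpf. At 24 hpf it was at 7.14 and 2.80 CPM in PGCs and 16.7 and 7.11 CPM in soma, back near its level before activation in PGCs. msgn1, a bHLH factor of presomitic mesoderm, was at 70.4 and 19.8 CPM in PGCs and 82.6 and 102 CPM in soma at 7 hpf, and at 10.8 and 0.89 and 18.5 and 3.85 CPM at 24 hpf. The clock gene her1 was at 115 and 72.1 CPM in PGCs and 83.2 and 49.9 CPM in soma at 7 hpf, overlapping between the cell types. At 24 hpf it was under 10 CPM in all 4 libraries, at 2.86 and 0.382 CPM in PGCs and 8.84 and 2.37 CPM in soma.

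L was lower at 24 than at 7 hpf by at least 1 in both cell types for 13 of the 15 genes (25.4% of the 6139). The median changes were -3.62 in PGCs and -2.89 in soma. The group was made after the values were seen, and the 7 hpf level was chosen to be high. Nothing is read from that count. The exceptions among the 15 were HES4, a hairy-type repressor, and the Notch ligand DLL1 (ENSDARG00000010791). That DLL1 gene was at 16.4 and 29.1 CPM in PGCs at 7 hpf and 118 and 80.5 CPM at 24 hpf, and in soma at 39.1 and 47.6 and 106 and 109.9 CPM. The second DLL1 gene (ENSDARG00000020219) was at 287 and 224 CPM in PGCs and 309.5 and 258 CPM in soma at 7 hpf. At 24 hpf it was at 109.7 and 91.7 and 121 and 127 CPM. The 2 DLL1 genes thus differed in direction after gastrulation in both cell types. The change of L from 7 to 24 hpf was -2.24 in PGCs and -1.81 in soma for the Notch ligand dlc, and -1.73 and -1.22 for NRARP, a feedback inhibitor of Notch. In PGCs it was -3.67 and -4.38 for the segmentation genes mespab and her7, -4.01 and -4.17 for the homeobox genes cdx4 and eve1, -3.62 for the protocadherin pcdh8 and -3.86 for the FGF ligand fgf24. At 24 hpf PGC minus soma L was below 0 for all 15, with a median of -0.83, while the libraries overlapped for 13 of them. Both PGC libraries were below both soma libraries for 2 (19.4% of the 6139) and above them for 0 (7.97%). By 36 hpf, 8 of the 15 were under 10 CPM in every library, out of 16 such genes among the 150. For the 24 hpf libraries of this group replicate 1 was the higher in 15 of 15 genes in PGCs and in 12 of 15 in soma, with medians of 1.08 and 1.13 on the log2(CPM + 1) scale.

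**Figure D4:**
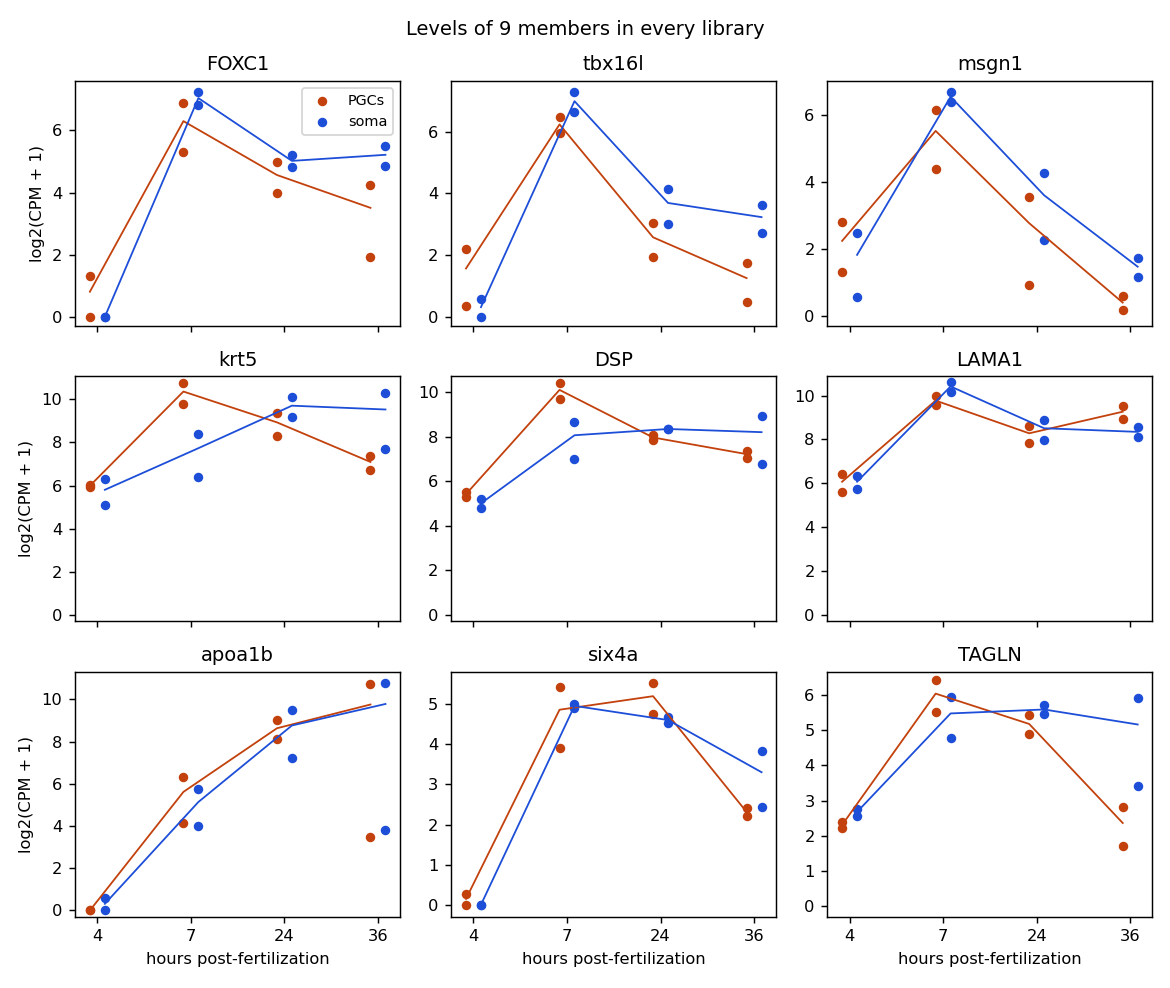
Levels of 9 genes in every library as log2(CPM + 1) (vertical axis) at 4, 7, 24 and 36 hpf (horizontal axis, stages evenly spaced), with PGC libraries in orange, soma libraries in blue and lines through L of each group. FOXC1, tbx16l and msgn1 peak at 7 hpf in both cell types, krt5 and DSP peak at 7 hpf in PGCs alone, and the 2 libraries of apoa1b lie far apart at 36 hpf (1717 and 10.3 CPM in PGCs).

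Over all 150 genes, L was lower at 24 than at 7 hpf by at least 1 in both cell types for 38 (25.4% of the 6139 genes) and higher by at least 1 in both for 26 (5.64%). The 7 hpf level had been chosen to be high, so nothing is read from these counts. In PGCs 49 genes were lower by at least 1 (40.3%) and 34 higher (7.28%), and in soma 50 lower (31.6%) and 35 higher (11.3%). A decrease of at least 1 was seen in PGCs alone for 11 genes, among them scinlb, DSP, LCP1, pkp3a, krt5 and smad9. It was seen in soma alone for 12, among them PKDCC, DLX3, lhx5, XYLT1 and NID1. smad9 was close to the limit in both cell types, with changes of -1.01 in PGCs and -0.86 in soma. The genes higher by at least 1 in both were led in PGCs by col4a5, a collagen of basement membranes, with changes of 3.34 in PGCs and 3.53 in soma. Next came ITGA6, a laminin-binding integrin subunit, with 3.31 and 2.45, and NOVA1 with 3.23 and 1.65. The zinc finger repressor ZEB1 had 2.82 and 1.52, and FBN3 had 2.67 and 2.76. TMM scaling adds 0.31 to the PGC change and takes 0.19 from the soma change, and left 30 genes lower in both.

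**Figure D5:**
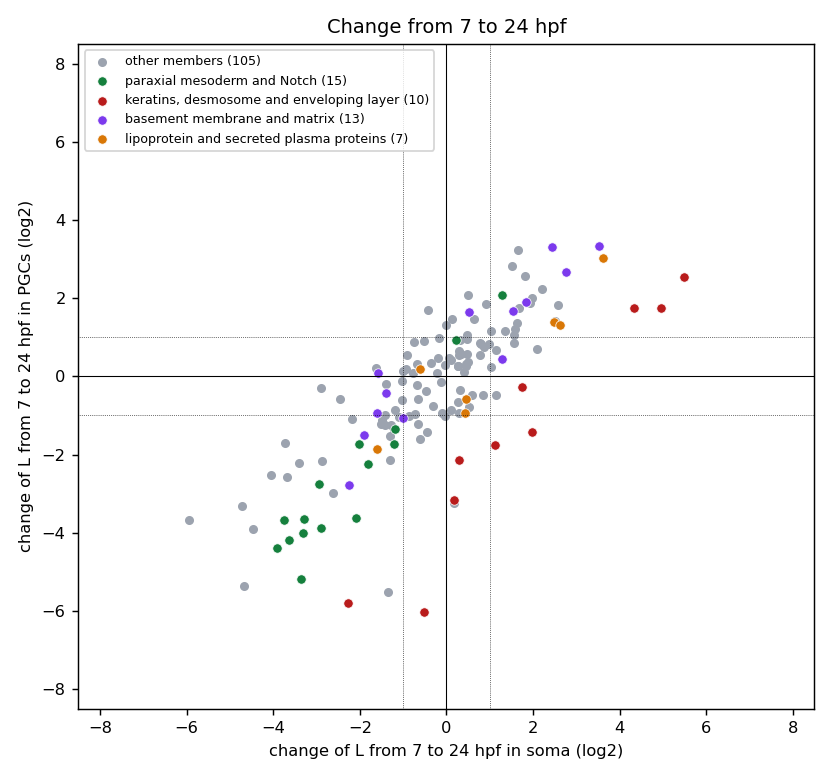
Change of L from 7 to 24 hpf in soma (horizontal axis) against that in PGCs (vertical axis), both log2, with 1 point per gene coloured by role and dotted lines at a change of 1 in size. Mesoderm and Notch genes lie at the lower left (13 of 15 lower by at least 1 in both, 25.4% of the 6139 genes). All 10 keratin and EVL genes have a larger change in soma than in PGCs, with medians of 1.43 in soma and -1.59 in PGCs. The 7 hpf level was chosen to be high, so nothing is read from these counts.

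The comparison of PGCs with soma at 24 hpf asks whether the genes activated in both still differed once the PGCs had reached the gonad region. None of the 150 passed the test of that difference, and the lowest in PGCs were LCP1 and mesoderm genes. This does not show equal levels, since of 20536 genes the test passed 8 as higher in PGCs and 0 as lower. The PGC libraries of this stage held 13794 and 20569 CPM of 7 skeletal muscle genes and 575 to 888 CPM of 10 germ cell genes. The part of somatic RNA in this result was not tested. PGC minus soma L had a median of -0.31 (-0.15 over the 6139 genes) and was below -1 for 10 genes (0.782% of the 6139) and above 1 for none (0.554%). The 10 included LCP1 (-2.63), pcdh8 (-2.02), her1, cdx4, tbx16l, fgf24 and FN1, which encodes the matrix protein fibronectin. The libraries did not overlap for 40 genes with PGCs below (19.4%) and for 8 with PGCs above (7.97%). In a fit with edgeR's quasi-likelihood test over 20536 genes none of the 150 passed, in either direction (adjusted p under 0.05 and log2 fold change past 1.5, passed by 0.039% of all genes as higher in PGCs and by 0% as lower). At an unadjusted p under 0.05 with the same fold change, 2 were lower in PGCs, LCP1 and pcdh8, and none was higher (0.575% and 2.15% of all genes). LCP1 had a fitted log2 fold change of -2.59 (SE 0.65) and an edgeR adjusted p of 0.558. DESeq2 called 1 of the 150, edgeR's likelihood ratio test 1 and limma on log2(TPM + 1) none. The median fitted log2 fold change was -0.22 over the 150 and 0.06 over all genes.

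At 36 hpf none of the 150 passed the test of PGCs against soma. TAGLN, DLX3 and FN1 were the lowest in PGC minus soma L, whereas the lowest fitted log2 fold change was -4.61. PGC minus soma L had a median of -0.43 (0.20 over the 6139 genes), was below -1 for 28 genes (3.05%) and above 1 for 6 (14.6%). The PGC libraries lay below both soma libraries for 39 genes (15.2%) and above them for 16 (39.9%). The lowest values were those of TAGLN, an actin-binding protein of smooth muscle and other contractile cells (-2.80), DLX3 (-2.46), FN1 (-2.46), krt5 (-2.43), cyt1 (-2.43) and col4a5 (-2.37). FN1 was at 80.3 and 105 CPM in PGCs and 87.4 and 939.7 CPM in soma, and col4a5 at 153 and 79.5 and 204 and 1000.3 CPM. Here soma replicate 2 was far above the other 3 libraries. The edgeR quasi-likelihood test passed 0 of the 150 (0.506% of all genes as higher in PGCs and 0.0146% as lower). At an unadjusted p under 0.05 with the same fold change, 23 were lower and 3 higher in PGCs (2.76% and 6.06% of all genes). The smallest adjusted p was that of TAGLN, with a log2 fold change of -3.41 (SE 0.79, edgeR adjusted p 0.0783). DESeq2 passed 10 genes, 9 of them lower in PGCs, and the likelihood ratio test 12, with 10 lower. Limma on log2(TPM + 1) passed 3, SMAD1, ARHGEF2 (ENSDARG00000040380) and arhgef2a, all higher in PGCs.

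The median fitted log2 fold change at 36 hpf was -0.82 over the 150, with 129 below 0, and 0.00 over all genes. The 2 PGC libraries of 36 hpf differed, and leaving out PGC replicate 1 gave 38 genes past the thresholds and a median of -1.54. Without soma replicate 1 of 36 hpf 9 genes passed. TMM lowers PGC minus soma by 0.43 at this stage relative to CPM. With that scaling 57 genes were below -1, and without PGC replicate 1 the count on the CPM scale was 68.

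The 6 genes above 1 in PGC minus soma L at 36 hpf belonged to the cytoskeleton, BMP signalling, cholesterol export and adhesion. ARHGEF2 (ENSDARG00000040380), a microtubule-bound exchange factor, was at 46.8 and 119 CPM in PGCs and 8.86 and 15.3 CPM in soma. Its fitted log2 fold change was 2.27 (SE 0.58, edgeR adjusted p 0.111). The related gene arhgef2a was at 9.05 and 21.6 CPM in PGCs and 1.35 and 2.48 CPM in soma. Both PGC libraries were above both soma libraries for these 2 genes, whereas the third of this name, ARHGEF2 (ENSDARG00000075819), was at 105 and 85.2 and 119 and 98.6 CPM, overlapping. SMAD1 and smad9 encode Smads that carry the BMP signal to the nucleus. SMAD1 was at 109.7 and 231 CPM in PGCs and 36.2 and 48.8 CPM in soma, and smad9 at 16.8 and 32.8 and 3.45 and 8.83 CPM. In both the PGC libraries were the higher, with SMAD1 at a log2 fold change of 1.51 (SE 0.56, edgeR adjusted p 0.237). The last of the 6 were the cholesterol exporter abca1b (1.40) and the adhesion protein alcamb (1.23), in PGC minus soma L.

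Between 24 and 36 hpf, 7 of the 150 fell in PGCs and none rose by edgeR's quasi-likelihood test. They were six4a, TAGLN, tuba8l2, WWTR1, GREB1L, GREB1 and ENSDARG00000108537. Over all 20536 genes 1.69% fell and 0.185% rose. At an unadjusted p under 0.05 with the same fold change, 36 of the 150 were lower and none higher (6.29% and 2.49% of all genes). six4a, a homeobox gene of sensory placodes and muscle precursors, was at 26.2 and 45.3 CPM in PGCs at 24 hpf and 4.32 and 3.62 CPM at 36 hpf. The fit gave it a log2 fold change of -3.86 (SE 0.72, edgeR adjusted p 0.0182). In soma six4a was at 24.6 and 22.1 and then 4.43 and 13.3 CPM. TAGLN was at 28.6 and 41.7 and then 6.01 and 2.28 CPM in PGCs (log2 fold change -3.70, SE 0.79, edgeR adjusted p 0.0286). Soma had 51.4 and 42.7 and then 9.72 and 59.8 CPM, lower in replicate 1 alone. tuba8l2, an alpha-tubulin, was at 148 and 201 and then 43.1 and 34.6 CPM in PGCs (log2 fold change -2.85, SE 0.57, edgeR adjusted p 0.022). Because alpha-tubulin genes are much alike, its counts may hold reads of others.

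WWTR1, the coactivator TAZ of the Hippo pathway, fell from 72.0 and 75.8 to 31.1 and 29.5 CPM in PGCs (log2 fold change -1.97, SE 0.40, edgeR adjusted p 0.0227). GREB1 is a hormone-responsive gene in human cells, and GREB1L is its paralogue. GREB1L fell from 304 and 258 to 133 and 104 CPM (log2 fold change -1.91, SE 0.38, edgeR adjusted p 0.022). GREB1 fell from 188 and 91.3 to 70.3 and 44.6 CPM (log2 fold change -1.89, SE 0.45, edgeR adjusted p 0.0479). ENSDARG00000108537, without a symbol, fell from 37.4 and 33.3 to 12.1 and 11.3 CPM (log2 fold change -2.26, SE 0.44, edgeR adjusted p 0.0208). In all 7 both PGC libraries of 36 hpf lay below both of 24 hpf. The 7 skeletal muscle markers given above were also lower in PGCs at 36 than at 24 hpf, and their part in these changes was not tested.

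The fitted median of the PGC change from 24 to 36 hpf was -0.74 over the 150 and 0.02 over all genes. That scale lies 0.70 below CPM for this contrast, and on the CPM scale the median change of L was -0.10 over the 150 and 0.49 over the 6139 genes. On log2(TPM + 1) the median over the 150 was 0.26, so its sign was not the same in every fit. Limma on log2(TPM + 1) passed 8 genes. Of these, six4a, TAGLN and tuba8l2 were lower and SMAD1, ARHGEF2 (ENSDARG00000040380), EPS15L1, CPEB2 and arhgef2a higher at 36 hpf. The absence of genes that rose thus did not hold in every fit. The limma fit differs from edgeR's in measure, filter and test, and the part of each was not tested. All 7 genes were also lower on the CPM scale, with changes of L from -2.89 (six4a) to -1.24 (GREB1L), and in the limma fits. No gene passed without PGC replicate 2 of 24 hpf or without PGC replicate 2 of 36 hpf, 3 passed without PGC replicate 1 of 24 hpf and 25 without PGC replicate 1 of 36 hpf. Leaving out either soma library of 36 hpf gave 12.

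In soma the change from 24 to 36 hpf was past the thresholds for 0 of the 150, and for 0% of all genes, by edgeR's quasi-likelihood test. At an unadjusted p under 0.05 with the same fold change, 16 were lower and 3 higher (3.79% and 2.85% of all genes), and DESeq2 passed 4 of the 150. The 7 genes that fell in PGCs had log2 fold changes between -1.65 and -0.58 in soma. The difference between the PGC and the soma change passed for none of the 150 nor of all genes (0%), with a smallest edgeR adjusted p of 1.00 and 6 lower and 1 higher at an unadjusted p under 0.05 with the same fold change (1.3% and 1.79% of all genes). DESeq2 passed none and the fit without PGC replicate 1 of 36 hpf passed 3. The decreases were therefore not shown to differ between PGCs and soma.

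Basement membrane and matrix genes made up 13 of the 150. Laminins, nidogens and type IV collagen build the sheet under epithelia, and fibronectin is laid down between the moving cell layers of the gastrula. LAMA1, a laminin alpha chain, was at 85.0 and 47.3 CPM in PGCs and 79.4 and 52.99 CPM in soma at 4 hpf, and at 751 and 994 and 1155 and 1574 CPM at 7 hpf. Both PGC libraries lay below both soma libraries at 7 hpf. At 24 hpf LAMA1 was at 388 and 231 CPM in PGCs and 478 and 248 CPM in soma, and at 36 hpf at 486 and 741 and 272 and 375 CPM, where PGCs were the higher. LAMB1, a laminin beta chain, had the same order, with PGC minus soma L of -0.56 at 7 hpf and 0.51 at 36 hpf. TMM lowers PGC minus soma by 0.43 at 36 hpf, which is most of the LAMB1 value. Both PGC libraries were the higher at 36 hpf for 39.9% of the 6139 genes. NID1 was at 208 and 204 CPM in PGCs and 430.1 and 708 CPM in soma at 7 hpf and stayed lower in PGCs at 24 and 36 hpf, with PGC minus soma L of -0.50 and -0.95. The matrix genes did not move as a block after gastrulation. col4a5, FN1, FBN3, ITGA6 and P3H1, a prolyl hydroxylase of collagen, were higher at 24 than at 7 hpf by at least 1 in both cell types. LAMA1, LAMB1 and the metalloproteinase ADAMTS18 were lower by at least 1 in both, and XYLT1 (which starts glycosaminoglycan chains), NID1 and EMILIN2 in soma alone. FN1 was at 56.1 and 31.4 CPM in PGCs and 69.4 and 143 CPM in soma at 7 hpf, and at 195 and 139 and 563 and 196 CPM at 24 hpf. Both soma libraries were above both PGC libraries at 7 hpf and, by a narrow margin, at 24 hpf. The FN1 libraries overlapped at 36 hpf. SERPINH1, the chaperone of collagen, was at 72.9 and 13.8 CPM in PGCs and 76.3 and 188 CPM in soma at 36 hpf, and both PGC libraries lay below both soma libraries.

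Cadherins and other adhesion receptors numbered 9, with group medians in PGC minus soma L of -0.58, -0.38 and -0.46 at 7, 24 and 36 hpf. CDH2 encodes N-cadherin, which holds mesodermal and neural cells together. It was at 39.2 and 42.6 CPM in PGCs and 24.8 and 35.7 CPM in soma at 4 hpf, at 513 and 420.3 and 583 and 889 CPM at 7 hpf and at 917 and 1055 and 895 and 725 CPM at 36 hpf. CDH2 thus kept its 7 hpf level or more to the last stage in both cell types. PCDH19 was at 215 and 155 CPM in PGCs and 246 and 176 CPM in soma at 24 hpf, so the gap seen at 7 hpf was no longer outside the replicates. The giant cadherin FAT1 was at 357 and 444 CPM in PGCs and 347 and 604 CPM in soma at 7 hpf and at 1499 and 1176 and 1673 and 1391 CPM at 24 hpf. alcamb had a change of L from 7 to 24 hpf of -1.23 in PGCs and -1.43 in soma. Among the 5 genes for Eph receptors, ephrins and the neuropilin NRP2, which guide cell sorting at boundaries, the 2 EFNB2 genes went apart. EFNB2 (ENSDARG00000074050) was at 66.7 and 45.7 CPM in PGCs at 7 hpf and 7.27 and 5.09 CPM at 24 hpf, and in soma at 76.1 and 84.3 and 16.5 and 7.70 CPM. EFNB2 (ENSDARG00000020164) was at 151 and 30.0 and 75.4 and 54.0 CPM in PGCs and at 95.7 and 42.6 and 137 and 70.7 CPM in soma. NRP2 was higher at 24 than at 7 hpf by 2.58 in PGCs and 1.81 in soma. EPHB3 (ENSDARG00000103576) was lower in PGCs at all 3 later stages, with PGC minus soma L of -0.81, -0.50 and -1.04, and EPHB3 (ENSDARG00000031548) had -1.29 at 7 hpf.

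Of the BMP pathway, which patterns the ventral side of the gastrula and is read out by Smads, smad9, both SMAD6 genes (inhibitory Smads) and SMAD1 were among the 150, with the BMP-responsive homeobox genes msx1b and DLX3. SMAD1 was at 17.0 and 32.0 CPM in PGCs and 19.6 and 17.7 CPM in soma at 7 hpf and at 79.3 and 50.4 and 73.4 and 45.6 CPM at 24 hpf. smad9 was at 28.5 and 37.2 CPM in PGCs and 18.7 and 18.9 CPM in soma at 7 hpf, and at 20.2 and 11.4 and 10.1 and 9.78 CPM at 24 hpf. SMAD6 (ENSDARG00000031763) was higher at 24 than at 7 hpf by 0.84 in PGCs and 0.77 in soma. For SMAD6 (ENSDARG00000053209) the same change of L was -1.03 in PGCs and -0.03 in soma. The Smad genes thus took different courses, and none of the 6 genes passed edgeR's quasi-likelihood test in any contrast. At 36 hpf limma on log2(TPM + 1) passed SMAD1 as higher in PGCs, and DESeq2 passed DLX3 as lower. By the quasi-likelihood test none of the 26 BMP pathway genes tested passed in any of the 5 contrasts.

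Wnt genes among the 150 were the receptors FZD3 and FZD10, the transcription factor TCF7, the kinase GSK3B and the antagonists NKD1 and frzb. frzb, a secreted Wnt inhibitor, was at 50.7 and 11.9 CPM in PGCs and 54.5 and 66.0 CPM in soma at 7 hpf and at 1.43 and 0.89 and 1.29 and 2.22 CPM at 24 hpf. It was the only one of the 6 lower by at least 1 in both cell types. GSK3B was higher at 24 than at 7 hpf by 1.84 in PGCs and 0.92 in soma. TCF7 was at 41.1 and 42.5 CPM in PGCs and 20.6 and 44.4 CPM in soma at 7 hpf, and at 29.7 and 17.7 and 61.4 and 32.3 CPM at 24 hpf, where both PGC libraries were the lower. None of the 6 passed edgeR's quasi-likelihood test. By it 1 of 23 Wnt pathway genes tested fell in PGCs from 24 to 36 hpf (1.69% of all genes). For retinoic acid, ALDH1A2 was at 144 and 37.2 CPM in PGCs and 127 and 145 CPM in soma at 7 hpf and at 46.8 and 45.4 and 93.8 and 69.8 CPM at 24 hpf. DHRS3, which turns retinal back to retinol, was at 16.4 and 26.2 and 18.7 and 62.5 CPM at 7 hpf and at 50.6 and 30.5 and 29.2 and 26.5 CPM at 24 hpf. At 24 hpf ALDH1A2 was thus lower and DHRS3 higher in both PGC libraries than in both soma libraries. Of 54 retinoic acid and hox genes tested, 2 of them among the 150, 4 fell in PGCs from 24 to 36 hpf, where 1.69% of all genes fell. ALDH1A2 and DHRS3 were not among those 4, so that count is about genes outside the 150. The median log2 fold change was -2.99 over the list and 0.02 over all genes. In soma the list median was -1.85 over the same interval. By the quasi-likelihood test no gene of the Wnt or retinoic acid lists passed in the other 4 contrasts. None of the Notch (20 tested) and FGF (26 tested) lists passed it in any contrast.

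The 15 further regulators of transcription had group medians in PGC minus soma L of -0.32, -0.30 and -0.65 at 7, 24 and 36 hpf. ZEB1, a repressor tied to epithelial-to-mesenchymal transition, had no counts in the 4 libraries of 4 hpf. It was at 17.9 and 13.4 CPM in PGCs and 27.5 and 64.6 CPM in soma at 7 hpf and at 121 and 112 and 133 and 135 CPM at 24 hpf. Its relative zeb2a was higher at 24 than at 7 hpf by 1.43 in PGCs and 2.51 in soma, and SOX5, a SoxD factor, by 2.01 and 1.97. These 3 were thus at higher levels after gastrulation than during it in both cell types. PRDM1 is a transcriptional repressor that acts in neural crest and muscle lineages and specifies germ cells in the mouse. It was at 32.2 and 30.5 CPM in PGCs and 40.3 and 191 CPM in soma at 7 hpf. At 24 hpf PRDM1 was at 39.3 and 27.7 and 87.4 and 47.9 CPM, and both PGC libraries were the lower at both stages. otx2a, a homeobox gene of forebrain and midbrain, was at 33.0 and 26.2 CPM in PGCs and 128 and 91.2 CPM in soma at 7 hpf, and at 9.86 and 1.27 and 12.7 and 6.22 CPM at 24 hpf. The Hippo pathway genes WWTR1 and TEAD3 had PGC minus soma L of 0.66 and 0.37 at 7 hpf and of -0.68 and -0.12 at 36 hpf. IRX1 and ZNF703 had PGC minus soma L of -1.60 and -0.66 at 7 hpf. In this group 4 genes (six4a, WWTR1, GREB1L and GREB1) were among the 7 that fell in PGCs from 24 to 36 hpf.

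Genes for lipoproteins and secreted plasma proteins, which the yolk syncytial layer and later the liver make, showed wide gaps between replicates at 36 hpf. apoa1b, an apolipoprotein of high-density lipoprotein, was at 0 and 0 CPM in PGCs and 0 and 0.486 CPM in soma at 4 hpf and at 16.4 and 79.7 and 15.1 and 53.4 CPM at 7 hpf. It was at 276 and 515 CPM in PGCs and 720.3 and 146 CPM in soma at 24 hpf. At 36 hpf it was at 1717 and 10.3 CPM in PGCs and 1745 and 13.0 CPM in soma, high in replicate 1 and low in replicate 2 of both cell types. The antifreeze-type gene afp4 (ENSDARG00000095863) was at 464 and 2.15 and 369 and 2.17 CPM and fetub, a fetuin, at 436 and 2.95 and 389.9 and 1.70 CPM at 36 hpf. Over the 7 genes of the group replicate 1 exceeded replicate 2 at 36 hpf by a median of 5.11 on the log2(CPM + 1) scale in PGCs (6 of 7 higher) and by 4.80 in soma (7 of 7 higher). The 6 yolk syncytial layer and lipoprotein markers, 2 of which (apoa1b and afp4) are in the group, summed to 7739 and 36.0 CPM in PGCs and to 6940 and 34.4 CPM in soma. PGC and soma thus moved together by replicate at this stage, and the cause of the gap was not tested. Median PGC minus soma L of the group was 0.78 at 7 hpf, -0.13 at 24 hpf and 0.17 at 36 hpf, and the last value was smaller than the TMM shift. ABCA1 was at 246 and 279 CPM in PGCs and 117 and 54.2 CPM in soma at 7 hpf, both PGC libraries above both soma libraries, and overlapped at 24 and 36 hpf. MTTP, which loads lipid onto apolipoprotein B, was at 39.7 and 111 and 37.7 and 72.5 CPM at 7 hpf and at 12.2 and 28.0 and 28.6 and 6.37 CPM at 24 hpf. None of the 7 passed edgeR's quasi-likelihood test in any contrast. By it 1 of 31 cholesterol and lipid transport genes tested fell in PGCs from 24 to 36 hpf (1.69% of all genes).

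Genes of actin and microtubules numbered 12. SHROOM3, which constricts the apical side of epithelial cells, was at 0 and 0 CPM in PGCs and 0 and 0.486 CPM in soma at 4 hpf, at 31.6 and 28.2 and 18.3 and 52.1 CPM at 7 hpf and at 34.7 and 38.8 and 28.7 and 39.7 CPM at 24 hpf. The cell types overlapped at 7 and at 24 hpf. The Cdc42-binding kinase CDC42BPA was at 75.8 and 109 CPM in PGCs and 74.8 and 116 CPM in soma at 7 hpf, and at 225 and 188 and 292 and 202 CPM at 24 hpf. KIF26A, a kinesin-like protein, was at 165 and 111 CPM in PGCs and 239 and 322 CPM in soma at 7 hpf, with both PGC libraries lower. tuba8l2 was higher at 24 than at 7 hpf by 1.88 in PGCs and 1.93 in soma before its fall. ARHGEF2 (ENSDARG00000040380) had a PGC minus soma L of -0.84 at 7 hpf, 0.37 at 24 hpf and 2.68 at 36 hpf. TAGLN went the other way, from 0.56 at 7 hpf to -0.41 and -2.80. By edgeR's quasi-likelihood test 16 of 108 cytoskeleton and adhesion genes tested fell in PGCs from 24 to 36 hpf, where 1.69% of all genes fell. No gene of that list passed it in the other 4 contrasts. The median log2 fold change of that list in PGCs was -0.64, against 0.02 over all genes. Among the enzymes of glucose metabolism, the hexokinase HK1 was higher at 24 than at 7 hpf by 2.23 in PGCs and 2.21 in soma. For HKDC1, a hexokinase-like enzyme, the changes of L were -2.14 and -1.30. pck2, without counts in the 4 libraries of 4 hpf, was at 28.7 and 87.6 CPM in PGCs and 14.5 and 40.7 CPM in soma at 7 hpf, overlapping in range.

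The other 47 genes fell into no role group. Their PGC minus soma L ran from -2.30 to 2.47 at 7 hpf, from -1.68 to 0.46 at 24 hpf and from -2.26 to 0.92 at 36 hpf, and 1 of them (ENSDARG00000108537) fell in PGCs from 24 to 36 hpf. NOVA1 was at 419 and 319 CPM in PGCs and 437 and 419 CPM in soma at 24 hpf and at 989.7 and 137 and 1411 and 675 CPM at 36 hpf, where PGC replicate 2 was low and the other 3 libraries high. SETBP1 was higher at 24 than at 7 hpf by 1.82 in PGCs and 2.57 in soma, and si:ch211-279m15.1 had changes of L of -3.68 and -5.94. Across the 150 genes, L of PGCs and L of soma correlated with r = 0.69 at 7 hpf, 0.97 at 24 hpf and 0.92 at 36 hpf, over points that share libraries and differ in length, so this describes the gene levels only. None of the 150 was in the lists of germ cell, pluripotency, Nodal, ribosomal protein or cell cycle genes. The CPM limit in soma left 5 of 20 germ cell genes, and 13, 9, 85 and 30 genes of the other 4 lists reached it. Only 150 of the 6139 genes at that limit were taken, so nothing is read from these absences. Of the other lists, 39 mesoderm, endoderm and organizer genes were tested and 1 fell in PGCs from 24 to 36 hpf, as did 1 of 42 ectoderm and neural plate genes (1 rose) and 1 of 31 enveloping layer and keratin genes. With 1.69% of all genes lower and 0.185% higher there, a single call in a list of this size is near the background. The medians of these 3 lists were -0.63, -0.79 and -1.90 in that contrast, against 0.02 over all genes. The lists were drawn up with earlier results of these data known.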

How the data were processed

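PGCs and soma were sorted from transgenic embryos, total RNA libraries were made with the SMARTer pico v2 kit and sequenced on a NovaSeq instrument. Per the labels and methods the authors used Trim Galore, STAR and RSEM on the genome build danRer10 and deposited, for 16 libraries, a table of RSEM expected counts, a table of TPM and a table of effective lengths in bases. Of the deposited expected counts 95.2% are whole, since RSEM divides reads that fit several genes. The tool versions are not given in the sources used here. The 92 spike-in rows hold no counts, and 0 columns of other series were present.

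CPM was computed over Ensembl gene rows without 2 identifiers, which together took 0.07 to 39.1% of a library, and L is log2(mean CPM + 1). Symbols came from a table of gene names. Expected counts were rounded and tested with edgeR 4.0.16 (R 4.3.3): TMM normalisation, filterByExpr, all 16 libraries in 8 groups and quasi-likelihood F tests of 5 contrasts over 20536 genes, all 150 among them. A gene was called at a Benjamini-Hochberg adjusted p under 0.05 and a log2 fold change past 1.5. The fit was tested on simulated data. Alternatives used DESeq2 1.42.0, limma 3.58.1 on the deposited TPM, edgeR's likelihood ratio test, other filters and scalings, a replicate block and leaving out each library. Each group has 2 libraries, printed singly, and p-values measure only the spread between these samples. Replicate numbers carry no stated shared origin and were not used as pairs.

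The genes, the pathway lists and the comparisons were chosen with earlier results of these data known. Named genes are the 10 with the highest mean change, the 5 largest and 5 smallest PGC minus soma L at 7 hpf, the called genes, up to 4 of each list and the 3 on either side of the limit. Other genes were named by role after their values were seen, and the role groups were made in the same way. No sequence is shown, since none was at hand for these genes.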

Additional observations from a re-analysis of the deposited data

How the results depend on the processing

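The number of the 150 genes past the thresholds depended on the processing. For PGC against soma at 24 hpf (0 in the report) it was 1 with DESeq2, 1 with the likelihood ratio test, 3 without a filter on low counts and 0 to 0 when single libraries were left out. At 36 hpf (0) it was 10 with DESeq2, 12 with the likelihood ratio test, 25 without a filter (24 of them lower in PGCs), 3 and 1 with limma on log2(TPM + 1) and log2(TPM + 0.1) (all higher), and 0 to 38 when single libraries were left out. For the PGC change from 24 to 36 hpf (7) it was 21 with DESeq2, 22 with the likelihood ratio test, 38 without a filter (all lower), 8 with limma on log2(TPM + 1) (5 higher and 3 lower), 2 with limma on log2(TPM + 0.1) (ARHGEF2, ENSDARG00000040380, higher and six4a lower) and 0 to 25 when single libraries were left out. For the soma change (0) it was 4 with DESeq2, 5 with the likelihood ratio test, 17 without a filter and 0 to 0 when single libraries were left out. The difference of changes (0) gave 6 without a filter and 0 to 3 when single libraries were left out. The cause of these differences was not tested. Of 25 alternatives, 23 called six4a, 22 TAGLN and tuba8l2, 20 WWTR1, GREB1L and ENSDARG00000108537 and 11 GREB1.

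The replicate block gave 2 genes at 36 hpf, ARHGEF2 (ENSDARG00000040380, log2 fold change 2.25, edgeR adjusted p 0.0334) and tbx16l (-3.08, edgeR adjusted p 0.0319), where the fit without it gave 0, and moved no other count by over 1.5 times. Deviations of same-numbered PGC and soma libraries from their group means correlated with r = 0.21, 0.07, 0.16 and 0.27 at 4, 7, 24 and 36 hpf, across genes, with 2 numbers a stage.

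The conditions for choosing genes were met by 394 genes on CPM, by 150 on TPM (43 of them among those described) and by 380 to 462 when single libraries of 4 and 7 hpf were left out. Counts of PGC minus soma L above 1 and below -1 at 7 hpf ran from 13 to 28 and from 22 to 47 when single libraries were left out. Below -1 at 36 hpf, 57 genes were counted on TMM-scaled CPM (chosen after seeing the data) and 21 to 68 when single libraries were left out. Genes lower in both cell types at 24 than at 7 hpf numbered 30 to 40. With 2 libraries a group and as few as 2825775 expected counts a library, low genes such as msgn1 and mespab after 7 hpf rest on few reads.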
